A study of Rattus norvegicus with 8 samples.

Results

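Striated muscle genes were followed in RNA of the rat thoracic aorta, a vessel whose own muscle is smooth. The list of 10 genes was fixed by name: Myh1, Myh4, Acta1, Ckm and Tnnt3 for skeletal muscle, and Myh6, Actc1, Tnnt2, Nppa and Myl7 for heart muscle. The gene table of 19238 genes held 9 of them. Myh4 had no row under its name and is not analysed here. The 2 groups were control rats of the Wistar strain and rats of the GK (Goto-Kakizaki) strain labelled as having diabetic macroangiopathy, each with 4 libraries numbered 7 to 10. All animals were 7 to 8 weeks old, the labels give no treatment, and GK rats are a non-obese diabetic strain bred from Wistar stock. Strain and disease are therefore the same split of the samples and cannot be told apart. The source name of every sample, controls included, reads as GK aorta, so the groups were taken from titles, strain and group labels. Nothing in the labels says that libraries of a group are separate animals, so p-values measure the spread between these libraries only.

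Striated muscle contracts when calcium binds the troponin complex on actin filaments and lets myosin heads pull on them. Skeletal fibres and cardiomyocytes build this machine largely from different gene copies, so the copies in use help to identify the muscle. Some copies, such as Myh7, are shared by slow fibres and heart. Adult fast fibres use the heavy chains Myh1 and Myh4, the actin Acta1 and the troponin T Tnnt3, with creatine kinase Ckm to buffer their energy. Cardiomyocytes of the adult rat use the heavy chain Myh6, the actin Actc1 and the troponin T Tnnt2. Myl7, a regulatory light chain, and Nppa, the atrial natriuretic peptide, are mainly made in the atria. Skeletal muscle of the back and diaphragm and the base of the heart lie beside the thoracic aorta, and vascular smooth muscle uses Acta2 and Myh11 instead.

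The regulators of muscle promoters read short DNA motifs, and 4 promoters are shown because they carry such motifs in genes whose levels the results turn on. Each is the window of 250 bases before the start site that the RefSeq promoter table uses in the build GRCr8, 5′ to 3′ along the gene. For Acta1 and Nppa that site is the annotated start of the gene. For Myh1 and Ckm it lies inside the gene, so 102 and 79 of the 250 bases are within the annotated gene span. Capitals mark the CArG box of serum response factor in Acta1 (chr19:68784195-68784444, minus strand), the MEF2 site in Myh1 (chr10:52384662-52384911, plus strand) and the E-box CANNTG of MyoD-type factors in Ckm (chr1:88189211-88189460, plus strand) and Nppa (chr5:163711934-163712183, plus strand).
Acta1: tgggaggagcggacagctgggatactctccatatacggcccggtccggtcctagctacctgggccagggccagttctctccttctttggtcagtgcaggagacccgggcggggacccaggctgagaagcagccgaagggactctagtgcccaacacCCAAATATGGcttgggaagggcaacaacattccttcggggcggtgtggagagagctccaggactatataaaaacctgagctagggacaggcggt
Myh1: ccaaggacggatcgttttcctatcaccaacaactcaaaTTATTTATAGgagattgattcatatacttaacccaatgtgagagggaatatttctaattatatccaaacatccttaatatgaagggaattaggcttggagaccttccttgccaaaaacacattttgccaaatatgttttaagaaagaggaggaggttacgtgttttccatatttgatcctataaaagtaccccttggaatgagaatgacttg
Ckm: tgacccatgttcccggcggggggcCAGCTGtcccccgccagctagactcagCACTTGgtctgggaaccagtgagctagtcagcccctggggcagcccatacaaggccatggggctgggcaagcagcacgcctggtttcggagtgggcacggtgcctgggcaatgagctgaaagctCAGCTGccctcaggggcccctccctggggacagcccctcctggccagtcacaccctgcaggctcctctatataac
Nppa: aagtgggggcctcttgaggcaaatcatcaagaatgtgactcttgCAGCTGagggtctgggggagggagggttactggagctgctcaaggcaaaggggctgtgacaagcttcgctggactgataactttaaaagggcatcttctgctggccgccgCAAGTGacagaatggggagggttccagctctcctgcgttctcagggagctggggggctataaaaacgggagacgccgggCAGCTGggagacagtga
The CArG box of Acta1 began at position -94 from that site and the MEF2 site of Myh1 at -212. Windows were found for 9 of the 10 symbols. On either strand, a CArG box stood in 2 of the 9 (Acta1 and Myh4) and in 501 of 33469 windows of this length. A MEF2 site stood in 2 of the 9 (Myh1 and Myh4) against 2.96% of all windows, an E-box in 7 of the 9 against 65.5%, and TATAAA in 4 of the 9 against 12.9%. A match is a description of letters only.

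Libraries that stand apart come first, since every result below rests on them. GK 9 held nearly all skeletal signal of the series, and control 7, GK 7 and GK 8 held nearly all cardiac signal. Library totals were between 11760397 and 16266151 counts. CPM are counts scaled to a common library total after correction by a TMM factor (0.825 to 1.24), and FPKM, per length, is as deposited. Smooth muscle genes were detected in every library, 15 of 15 with none at 0, with a summed level of 6531 to 17238 CPM in controls and 3369 to 10067 CPM in GK. The top of the GK range was GK 9. Of the 15 genes, 2 were highest there of all 8 libraries, Tpm2 (1099.5 CPM) and Des (760 CPM). In GK 7, GK 8 and GK 10 Tpm2 stood at 93.0, 105 and 237 CPM and Des at 125, 162 and 223 CPM. Whether skeletal muscle RNA adds to the sum in GK 9 was not tested. In bulk RNA, fewer cells of a type and less RNA per cell cannot be told apart.

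Myh1, the heavy chain of fast 2X fibres, marked GK 9 most sharply. Controls 7 to 10 had 1, 123, 4 and 1 counts of it. GK 7 to 10 had 51, 20, 128314 and 26. In CPM, GK 9 stood at 8208 against 11.4 in control 8, the next highest library, a 721-fold distance. GK 9 thus held 99.8% of the gene's CPM summed over the 8 libraries. The other 3 GK libraries (3.73, 1.37 and 1.97 CPM) lay between control 8 and the other controls (0.0735, 0.268 and 0.0683 CPM), so the groups overlapped. The row named Myh1 spans chromosome 10 from 53713938 to 53848347 (134410 bases, in the deposited coordinates, whose build is unnamed in the labels). That is longer than the 89558 bases from the start of Myh2 to the end of Myh4 in GRCr8, where Myh1 alone spans 23889. Reads of Myh2 and Myh4, close copies without a row of their own, may therefore be counted in it. The row also overlaps that of Myh8.

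Acta1 (chromosome 19, 56674074 to 56677084), the skeletal alpha-actin, stood at 2.94, 25.8, 33.5 and 29.2 CPM in controls 7 to 10. In GK 7 to 10 it stood at 6.80, 3.85, 4265 and 9.08 CPM. GK 9 was 127 times control 9, the next highest, while the other 3 GK libraries lay below controls 8 to 10 and above control 7. Muscle creatine kinase, Ckm (chromosome 1, 80321585 to 80331841), had 8.16, 6.30, 2.28 and 3.42 CPM in controls and 14.0, 36.1, 1789 and 2.50 CPM in GK. GK 9 was again the highest, 49.6 times the next. That next library was GK 8, and GK 7 and control 7 came after it, the libraries with the cardiac genes. Cardiomyocytes also make this kinase. Fast troponin T, Tnnt3 (chromosome 1, 215666628 to 215683628), had 6.47, 2.22, 4.83 and 5.47 CPM in controls and 2.85, 4.74, 553 and 2.65 CPM in GK. Outside GK 9 it ranged over 2.22 to 6.47 CPM, with no sign of the cardiac split. GK 9 was 85.5 times the next library.

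**Figure D1:**
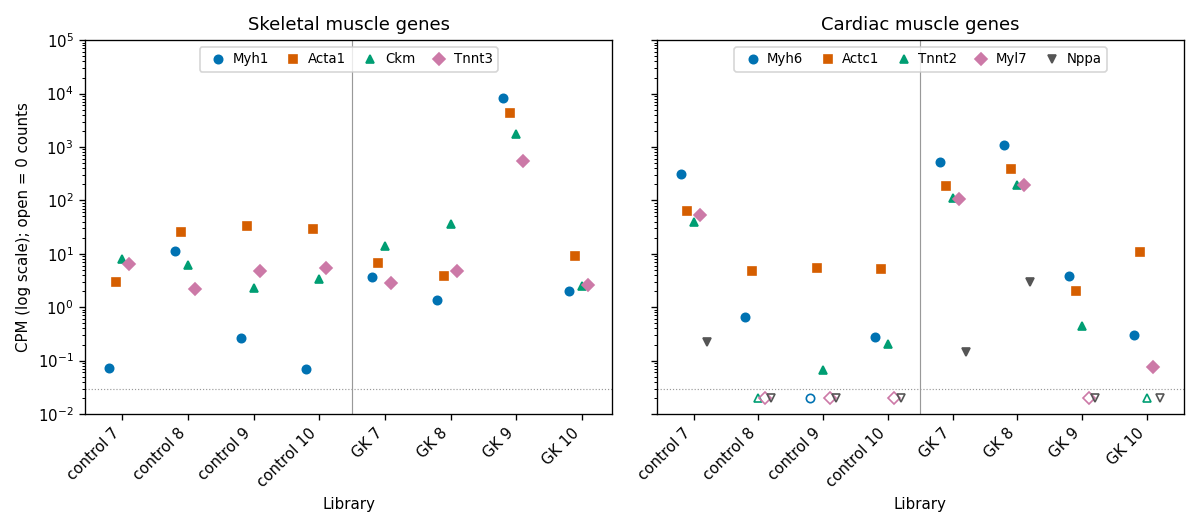
CPM (log scale) of each gene in each library, skeletal genes on the left and cardiac genes on the right; open symbols below the dotted line are 0 counts and the vertical line parts controls from GK. The 4 skeletal genes are high in GK 9 alone (553 to 8208 CPM), and 4 of the 5 cardiac genes are high in control 7, GK 7 and GK 8 (39.2 to 1074 CPM).

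Together the 4 skeletal genes took 231596 counts in GK 9, which is 1.76% of that library (95% Wilson interval 1.75 to 1.76%, counting error only). In the other 7 libraries they took 0.00133% (0.00117 to 0.00153%, GK 10) to 0.00505% (0.00467 to 0.00547%, control 9). As summed CPM, GK 9 stood at 14814 and the others at 16.2 to 46.0. Per length, Acta1 led in GK 9 with 3521 FPKM, followed by Ckm with 1474, Myh1 with 507 and Tnnt3 with 484 FPKM. The place of Myh1 in this order is uncertain, since its row is longer than the gene and may hold other copies. For scale, the smooth muscle actin Acta2 is the dominant actin of the aorta, and the FPKM ratio of Acta1 to Acta2 was 3.40 in GK 9. In the other 7 libraries that ratio was between 0.00325 (control 7) and 0.0135 (GK 7). In controls 8, 9 and 10 it was 0.00981, 0.0101 and 0.00937, so Acta1 followed Acta2 closely there. Actin genes are near-identical copies, and no label says how reads were shared among them.

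Cardiac genes drew a different line through the samples, across both groups. Myh6, the fast cardiac heavy chain (chromosome 15, 33605654 to 33629699), had 4321, 7, 0 and 4 counts in controls 7 to 10. In GK 7 to 10 it had 7201, 15631, 61 and 4 counts. In CPM these are 318, 0.648, 0 and 0.273 in controls and 526, 1074, 3.90 and 0.303 in GK. So 1 control and 2 GK libraries were high and the other 5 were at 3.90 CPM or less. GK 9, with the skeletal genes, was the highest of those 5. Myh6 and Myh7 are close copies, and Myh7 is also the slow skeletal heavy chain, so some sharing of reads is uncertain.

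Actc1, the cardiac alpha-actin (chromosome 3, 105507403 to 105512939), had 63.4, 4.72, 5.50 and 5.19 CPM in controls and 186, 388, 1.98 and 10.6 CPM in GK. It was the only cardiac gene of the 5 with a level well above 0 in every library. Its FPKM ratio to Acta2 was 0.00173, 0.00160, 0.00161 and 0.00153 in controls 8 to 10 and GK 9, against 0.0676 in control 7, 0.358 in GK 7 and 0.488 in GK 8. GK 10 lay between, at 0.00722. Cardiac troponin T, Tnnt2 (chromosome 13, 52662996 to 52680990), had 39.2, 0, 0.0671 and 0.205 CPM in controls and 110, 194, 0.448 and 0 CPM in GK. The same 3 libraries were high and the other 5 held 7 counts or fewer.

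Myl7 (chromosome 14, 86143862 to 86147553) gave the cleanest split. It had 723 counts in control 7, 1461 in GK 7 and 2798 in GK 8 (53.1, 107 and 192 CPM). Controls 8 to 10 and GK 9 had 0 counts, which allows up to 0.278, 0.201, 0.205 and 0.192 CPM (3 counts), and GK 10 had 1. Nppa (chromosome 5, 164808323 to 164809705) was nearly silent even where Myl7 was high, with 3 counts in control 7, 2 in GK 7 and 44 in GK 8, and 0 in the other 5 libraries. Its FPKM in GK 8 was 3.31, beside 80.2 for Myl7. Over the groups Nppa had 3 counts in controls and 46 in GK, which is 14.5 times as much CPM (95% interval from counting alone, 4.66 to 72.8), and GK 8 holds most of it.

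The proportions of the cardiac genes in the 3 libraries are given per length relative to Myh6. Myl7 had an FPKM ratio of 0.433 in control 7, 0.525 in GK 7 and 0.464 in GK 8. Tnnt2 had 0.563, 0.949 and 0.822, and Actc1 0.809, 1.43 and 1.46. Nppa had only 0.00472, 0.00189 and 0.0191. So the proportions of Myl7 were nearest to each other, Actc1 and Tnnt2 stood higher relative to Myh6 in both GK libraries than in control 7, and Nppa was the most uneven. The FPKM ratio of Myh6 to the slow heavy chain Myh7 also differed, at 64.3 in control 7, 15.1 in GK 7 and 21.8 in GK 8. With 1 control library there is no test of these differences. GK 8 exceeded GK 7 in CPM by 2.04 for Myh6, 2.08 for Actc1, 1.77 for Tnnt2 and 1.80 for Myl7. The 5 cardiac genes together took 0.180% of GK 8 (95% Wilson interval 0.178 to 0.182%), 0.0781% of GK 7 (0.0768 to 0.0795%) and 0.0479% of control 7 (0.0467 to 0.0490%). As summed CPM these were 1850, 929 and 474, against 5.37 to 11.0 in the other 5 libraries.

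**Figure D2:**
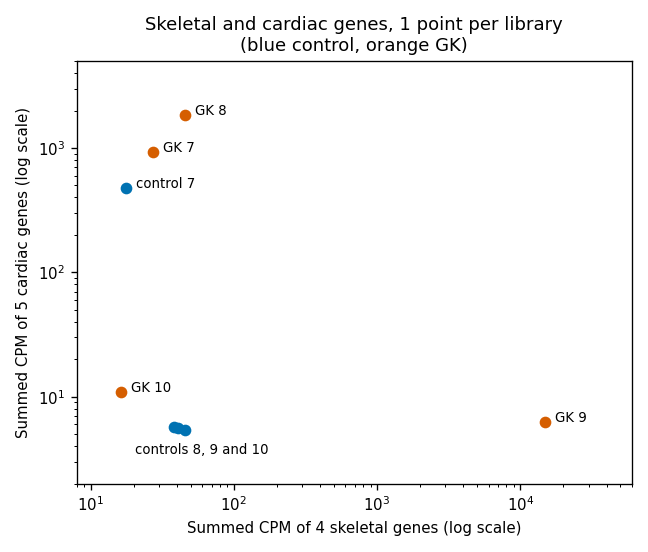
Summed CPM of the 4 skeletal genes (horizontal, log scale) against that of the 5 cardiac genes (vertical, log scale), 1 point per library. GK 9 stands alone on the right at 14814 CPM, control 7, GK 7 and GK 8 stand at the top from 474 to 1850 CPM, and no library is high on both axes.

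The question of the study's design, whether GK differs from control, was asked of these genes in the fit of all genes with edgeR's quasi-likelihood test and Benjamini-Hochberg adjustment. None of the 6 genes that passed the filter on low counts was called, where 7.28% of 13673 genes were (3.96% higher and 3.31% lower in GK). Tnnt2, Nppa and Myl7 did not pass the filter, having counts in too few libraries. At an unadjusted p under 0.05 the 4 skeletal genes passed and the 2 cardiac genes did not, where 27.6% of all tested genes passed. No gene of the 9 had groups that do not overlap, against 15.5% of tested genes. Without the filter, edgeR called none of the 9. DESeq2 also called none of them, where 15.7% of all genes with an adjusted p were called (8.97% higher and 6.73% lower), but gave no adjusted p for 5 of the 9, among them all 4 skeletal genes.

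The skeletal fold changes were large with large errors. Myh1 averaged 2.95 ± 5.63 CPM in controls and 2054 ± 4103 CPM in GK (SD, n = 4 each), a log2 fold change of 9.51 ± 3.52 (SE; edgeR adjusted p = 0.128). Acta1 averaged 22.9 ± 13.6 and 1071 ± 2129 CPM, a log2 fold change of 5.56 ± 2.34 (edgeR adjusted p = 0.166). Ckm came nearest to the threshold, with 6.53 ± 2.02 (edgeR adjusted p = 0.0831), and Tnnt3 had 4.89 ± 1.85 (edgeR adjusted p = 0.132). In each the SD in GK exceeded the mean, since a single library carried the level. Leaving that library out turned 3 of the 4 directions. Without GK 9 the log2 fold change was -0.28 ± 1.45 for Myh1, -1.78 ± 0.70 for Acta1, 1.81 ± 0.76 for Ckm and -0.46 ± 0.38 for Tnnt3. Their edgeR adjusted p were then 0.903, 0.0992, 0.119 and 0.399, none called where 22.1% of all genes were (11.2% higher and 10.9% lower). Without control 8, whose 123 counts made up most of the control signal, Myh1 reached 13.78 (edgeR adjusted p = 0.119).

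**Figure D3:**
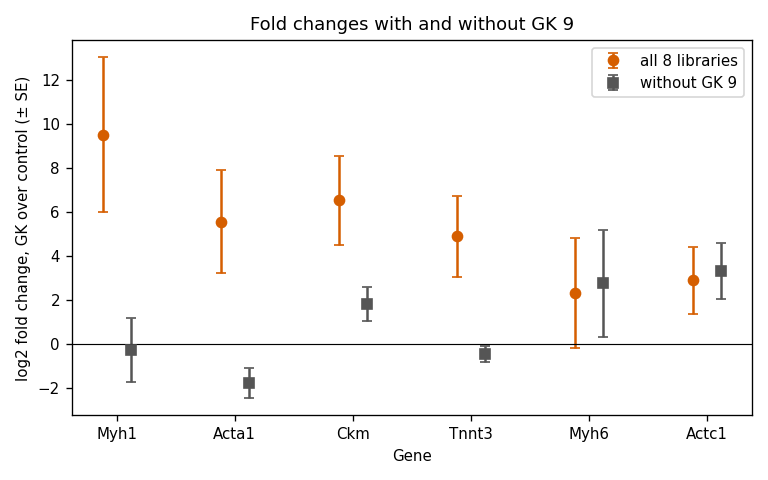
Log2 fold change of GK over control (edgeR, ± SE, vertical) for the 6 tested genes, with all 8 libraries (circles) and without GK 9 (squares). Without GK 9 the skeletal genes move from 4.89 to 9.51 down to -1.78 to 1.81, while Myh6 and Actc1 stay near 3.

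Cardiac genes were not called in any direction. Myh6 averaged 79.6 ± 159 CPM in controls and 401 ± 512 CPM in GK, a log2 fold change of 2.33 ± 2.50 (edgeR adjusted p = 0.570). Actc1 averaged 19.7 ± 29.1 and 147 ± 182 CPM, with 2.89 ± 1.52 (edgeR adjusted p = 0.255). Control 7 and GK 8 moved both values most. Without control 7 Myh6 had 10.44 ± 3.11 (edgeR adjusted p = 0.0926) and Actc1 4.84 ± 1.69 (edgeR adjusted p = 0.130). Without GK 8 Myh6 had 1.15 ± 2.63 (edgeR adjusted p = 0.835) and Actc1 1.75 ± 1.49 (edgeR adjusted p = 0.544). Without the filter Tnnt2 had 2.95 ± 2.19, Nppa 3.65 ± 1.85 and Myl7 2.50 ± 2.30 (edgeR adjusted p = 0.430, 0.279 and 0.530).

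The authors' deposited table gives a different verdict on the skeletal genes. It calls Myh1, Acta1, Ckm and Tnnt3 higher in GK, 4 of the 9, where it calls 2.92% of all 19238 genes higher and 2.48% lower. The q-values in the authors' deposited table are 0.00526, 0.0148, 3.65e-04 and 0.00628. None of the 5 cardiac genes is called there, the lowest q being 0.0980 for Actc1. Among the terms of the authors' deposited enrichment table, contractile fiber has 33 genes higher and 6 lower in GK (q = 4.87e-11). GK 9 was the highest library for 27 of those 33, and at least 10 times every other library for 19. Of the 33, 3 were called by edgeR's quasi-likelihood test. Striated muscle thin filament in the authors' deposited table has 7 genes higher, Acta1 and Tnnt3 among them (q = 7.09e-04). GK 9 was at least 10 times every other library for all 7, and edgeR's quasi-likelihood test called none of them. Over the whole gene table, GK 9 was at least 10 times every other library for 327 genes, of which the authors' deposited table calls 86 higher. These 86 are 15.3% of its 562 calls of that direction. Of the 327, edgeR's quasi-likelihood test called none, but genes picked for a single high GK library have a large spread within GK. Those that failed the filter on low counts were not tested at all. A call was therefore unlikely from the start, also for the 7 thin filament genes, which share this pattern.

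Other genes of fast fibres followed the skeletal members. Of 15 found, all 15 were highest in GK 9 (3606 of 19238 genes were), and 14 were there at least 10 times every other library. Neb, the giant ruler of the thin filament, stood at 3518 CPM in GK 9 and between 22.3 and 38.6 CPM elsewhere. The calcium release channel Ryr1 stood at 1053 against 0.550 to 1.54 CPM, and the Z-disc gene Actn3 at 1112 against 0 to 1.21 CPM. Of 7 tested, 1 rose and none fell, where 3.96% of all genes rose (median log2 fold change 4.16, against 0.00 over all genes). Without GK 9, 2 of 7 rose, where 11.2% of all genes did, and the median was 0.38, against -0.03 over all genes. The gene then added was the light chain Myl1 (1.13 ± 0.33, edgeR adjusted p = 0.0439). The gene that rose with all libraries was Mybpc2, fast myosin-binding protein C. It had 237, 237, 50.9 and 89.6 CPM in controls and 589, 534, 972 and 616 CPM in GK, so its groups did not overlap (2.15 ± 0.50, edgeR adjusted p = 0.0410; 1.92 ± 0.51 and 0.0325 without GK 9). With no filter on low counts its edgeR adjusted p was 0.0528, so that call was lost. It was the exception among the 15 also in not reaching 10 times the next library in GK 9.

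Fast genes outweighed slow ones in GK 9. The FPKM ratio of Myh1 to Myh7 was 21.4 there, with the limit of the long Myh1 row. That of Tnnt3 to the slow troponin T Tnnt1 was 48.7, and that of Tnni2 to the slow troponin I Tnni1 was 17.3. Of 8 genes of muscle lineage and development found, 7 were highest in GK 9, 4 of them at least 10 times every other library. The regulators Myog, Myf6 and Myod1 stood at 6.14, 5.37 and 4.67 CPM in GK 9 and at 0.0756 CPM or less elsewhere. Musk, a kinase of the nerve-muscle junction, was highest in control 8 (1.48 CPM, against 0.576 in GK 9), and the receptor subunit Chrna1 barely differed between GK 9 (0.832 CPM) and control 10 (0.751 CPM). None of the 8 passed the filter, so none was tested. Pax7, the satellite cell marker, reached 0.128 CPM in GK 9, below what 3 counts are worth (0.192 CPM), and had 0 counts elsewhere. Fast fibre genes stood lower in the controls than in GK 9. Among the controls, 11 of the 15 fast genes were highest in control 8, the control with 123 Myh1 counts, at levels such as 1.11 CPM for Mylpf, the fast light chain. Some rest on few counts there, such as 2 for Cacna1s and 6 for Pvalb. The other skeletal members did not follow. Acta1 was highest in control 9, and Ckm and Tnnt3 in control 7, with Tnnt3 lowest in control 8 (2.22 CPM). The share of all genes highest in control 8 was not counted.

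Genes shared by slow fibres and heart included several that were high in both kinds of library. Of 17 found and 13 tested by edgeR none was called, 8 had an unadjusted p under 0.05 (27.6% over all genes), and the median log2 fold change was 2.72. DESeq2 called 4 of the 17 higher, where 8.97% of all genes with an adjusted p were, and gave no adjusted p for 3. Myh7 had 4.85, 0, 0 and 0 CPM in controls and 34.3, 48.5, 118 and 0 in GK, so it was present in the cardiac libraries and in GK 9 alike. Xirp2, a repeat protein of muscle junctions, had 18.7, 1.85, 0.0671 and 0 CPM in controls and 42.9, 61.6, 507 and 0 CPM in GK. Fabp3, the fatty acid carrier of heart, had 76.2, 38.0, 4.76 and 6.63 CPM in controls and 331, 299, 96.3 and 201 CPM in GK (2.89 ± 0.87, edgeR adjusted p = 0.0779), with groups that did not overlap. It was called without GK 9 (3.14 ± 0.87, edgeR adjusted p = 0.0382) and by DESeq2 with all libraries (adjusted p = 0.00273). Fabp3 was thus high also in GK 10, which held little of either muscle.

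Other cardiac genes showed which of the cardiac programme was there. In 7 of 17 found, control 7, GK 7 and GK 8 were all above the remaining 5 libraries, as in 296 of 19238 genes. The 5 members all had this order too, but the libraries were singled out by the members' own levels, so that is no separate result. For Nppa the order rests on 3 counts in control 7 and 2 in GK 7. Tnni3, cardiac troponin I, had 41.7, 82.3 and 145 CPM in these 3 libraries and 0.137 CPM or less in the others, and Mybpc3, cardiac myosin-binding protein C, 21.1, 61.5 and 125 against 0.0683 or less. The atrial light chain Myl4 had 29.5, 66.6 and 102 CPM there and 1.88 or less elsewhere, and the atrial calcium pump inhibitor Sln 2.65, 5.70 and 14.4 against 1.15 or less. The FPKM ratio of Myl7 to Myl4 was 0.616, 0.548 and 0.644 in control 7, GK 7 and GK 8. By contrast Nppb, the peptide of the stressed ventricle, stood at 0.137 CPM or less in all 8 libraries. The heart regulator Nkx2-5 reached 0.550 CPM in GK 8 and 0.0735 or less elsewhere. Ryr2 and Pln, which smooth muscle also makes, did not split the libraries. Ryr2 ranged from 52.0 to 313 CPM and Pln from 12.6 to 132, highest in control 9. Of 12 tested by edgeR none was called, 1 had an unadjusted p under 0.05 (27.6% over all genes), DESeq2 called none, and the median was 1.73.

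**Figure D4:**
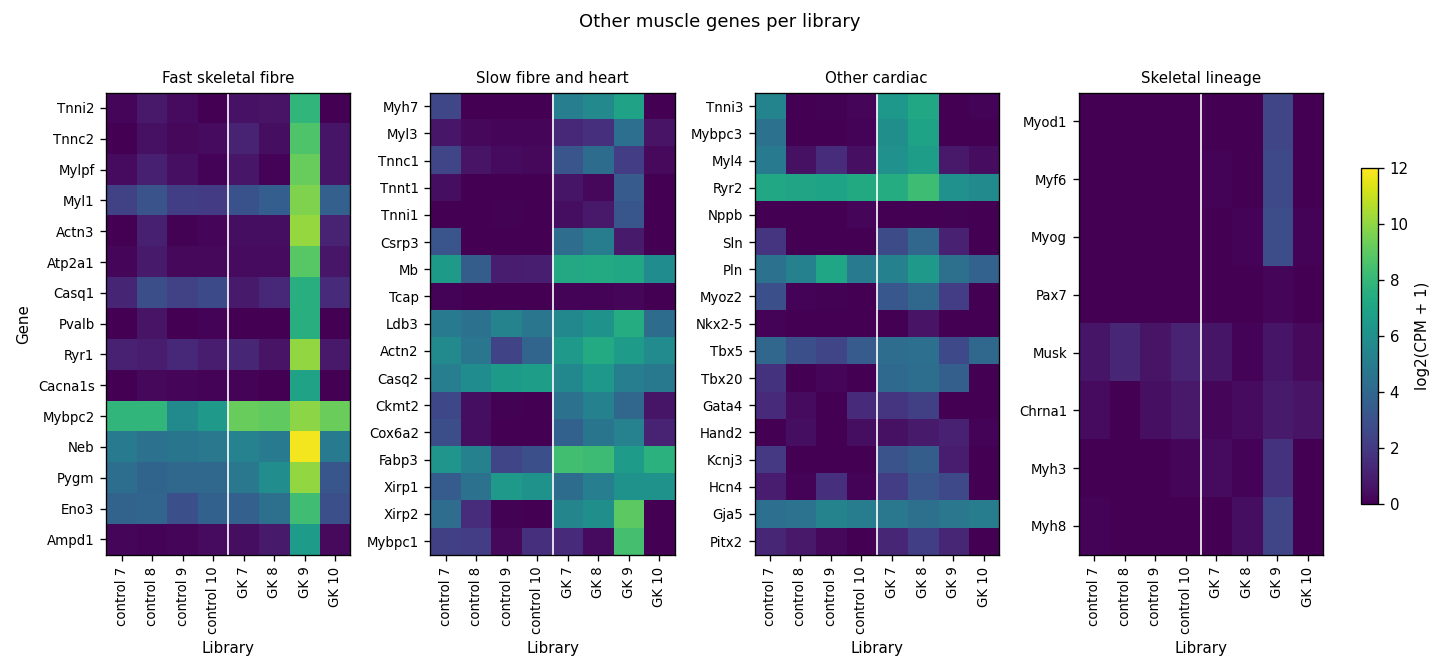
Heat map of log2(CPM + 1) for genes (rows) of 4 muscle lists in the 8 libraries (columns, controls left of the white line). Fast fibre and lineage genes are bright in GK 9, and cardiac genes such as Tnni3 and Mybpc3 in control 7, GK 7 and GK 8.

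The lncRNA table gave a second readout at the same loci, since 27 of its 24300 transcripts overlap 6 of these genes. It was not stated whether counting used strand, so reads of a gene and of an overlapping lncRNA cannot be told apart. The 9 transcripts at Myh1, Acta1 and Tnnt3 summed to 1006 counts in GK 9 and 0 to 15 in the other libraries. At Myh1, NONRATT004407.2 (chromosome 10, 53734135 to 53738163) had 498 counts in GK 9 and 0 in the other 7. At Tnnt3, NONRATT001370.2 (chromosome 1, 215669521 to 215671043) had 191 counts in GK 9 and 0 to 13 elsewhere. None of the 9 passed the filter of the edgeR test, which called 2.74% of 11683 lncRNA transcripts (1.63% higher in GK and 1.11% lower), whereas 4 of them are called higher in the authors' deposited table, which calls 1.93% of lncRNA transcripts so. The 18 transcripts at Myh6, Tnnt2 and Myl7 summed to 421, 1261 and 2222 counts in control 7, GK 7 and GK 8. In the other libraries they summed to 5 or 6, except for 42 in GK 9. Of the 15 with at least 10 counts, 12 had over 90% of them in those 3 libraries. The other 3, all at Myh6, were highest in GK 9, with NONRATT010415.2 (chromosome 15, 33614737 to 33615216) at 17 counts there, 9 in GK 8 and 0 or 1 elsewhere.

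Genes of other cells moved with these libraries in part. Among the GK libraries, GK 9 had the highest sum of smooth muscle genes (10067 CPM) and of fibroblast genes (3769 against 1146 to 1933 CPM). It had the lowest sum of brown adipocyte genes (1876 against 5316 to 6297 CPM) and of general adipocyte genes (13011 against 23454 to 30030 CPM). Its endothelial sum (1256 CPM) lay within the range of the others. The summed smooth muscle list was lowest in controls in control 7, at 6531 CPM, and lowest in GK in GK 7, at 3369 CPM, both libraries with cardiac genes. Of its 15 genes 3 fell in GK (median -1.05), where 3.31% of all genes fell, and without GK 9 5 fell, where 10.9% did. The 3 were the integrin Itga8 (log2 fold change -2.21 ± 0.39), the potassium channel subunit Kcnmb1 (-1.86 ± 0.42) and the actin regulator Lmod1 (-1.37 ± 0.32). Their edgeR adjusted p were 0.0184, 0.0361 and 0.0411, and Lmod1 was not called with no filter on low counts (0.0540). Acta1 in control 7, at 2.94 CPM, was low, and so was Acta2 (876 CPM against 2551 to 3217 in controls 8 to 10). Acta1 was the lower of them by more, since its FPKM ratio to Acta2 was 0.00325 in control 7 against 0.00937 to 0.0101 in controls 8 to 10. Brown adipocyte genes summed to 725 to 3477 CPM in controls and 1876 to 6297 CPM in GK, and general adipocyte genes to 8131 to 12626 and 13011 to 30030 CPM. By edgeR 2 of 8 brown adipocyte genes rose (3.96% of all genes did), namely Otop1 (3.38 ± 0.43) and the glycerol kinase Gk (3.01 ± 0.54). Of 11 general adipocyte genes 4 rose, among them the lipid droplet gene Plin4 (1.09 ± 0.19), the glycerol channel Aqp7 (1.31 ± 0.28) and Cidec (1.07 ± 0.25), whose call was lost with no filter (edgeR adjusted p = 0.0571). Of 9 endothelial genes 4 rose, among them the VEGF receptor Kdr (1.45 ± 0.24), Sox17 (0.94 ± 0.17) and the nitric oxide synthase Nos3 (0.77 ± 0.15). Of 9 fibroblast genes 4 fell (3.31% of all genes did), among them the protease Mmp2 (-1.82 ± 0.34), the collagen Col1a1 (-2.59 ± 0.54) and Dpt (-2.15 ± 0.45). None of 14 genes of other tissues was called. The blood haemoglobin genes Hba1 and Hbb had -1.23 ± 0.84 and -0.81 ± 0.84 (edgeR adjusted p = 0.368 and 0.555). The alveolar marker Sftpc had 0 counts in 7 libraries and 0.137 CPM in control 10. What part these cells have in the differences between groups was not tested.

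Genes outside the lists that followed the summed levels most closely over the 8 libraries are given as a description. For the skeletal sum these were Slc36a1, Ache, Cacng1, Adcyap1r1 and Napb (Pearson r of log2 CPM 0.993 to 0.985, n = 8 libraries, 12211 genes compared). All of them rest on GK 9: Ache stood at 40.7 CPM there and at 1.82 to 2.82 CPM elsewhere. For the cardiac sum they were Ankrd1, Tecrl, Stxbp2, Zfyve16 and Elovl6 (r 0.994 to 0.947). Ankrd1 had 44.0 CPM in control 7, 70.3 in GK 7 and 136 in GK 8, and the remaining 5 libraries had 2.11 CPM or less. Stxbp2 and Zfyve16 differed far less, with 13.8 to 15.2 against 8.95 to 11.1 CPM for Stxbp2.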

How the data were processed

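Total RNA of 8 thoracic aorta samples had been sequenced. The authors deposited tables of counts for genes and for lncRNA transcripts, FPKM per library and as group means, log2 fold changes, p-values and q-values (edgeR per the file headers and names), and enrichment tables with their numbers of genes and q-values. Bowtie 0.12.2 and the mouse builds mm8 and mm9 appear, without a role, per the submitters' processing notes. Which rat build was used is not given there or in the labels. Depth was 11760397 to 16266151 gene counts per library.

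From the counts, all genes were tested in R 4.3.3 with edgeR 4.0.16 (filterByExpr, TMM, glmQLFit, glmQLFTest, group as the only term, adjusted p under 0.05), checked on simulated data. DESeq2 1.42.0, other size factors, no filter, a replicate block and each library left out were alternatives. SE was taken as the absolute log2 fold change divided by the square root of F. The members and the 12 lists (148 entries, 134 found) were chosen with earlier results of these data known; the limits of 10 times every other library and of 10 lncRNA counts were set after seeing the data. Named genes were all members; of each other list the 3 changed genes with the lowest adjusted p or else the 2 with the highest mean CPM; and the 5 genes most correlated with each sum (mean of at least 1 CPM, prior count 2 in the log). Further list genes are named after their values were seen. Promoters are from RefSeq (GRCr8). Some genes of the list of other tissues are not reported here.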

Additional observations from a re-analysis of the deposited data

Results flagged for a closer look

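Among 17 sets of 4 libraries (a gene in a group, with more than 3 counts), 10 had a library set apart. In these a gap took up most of the group's range, which chance gives about 1 in 20 times for a single set. The sets share the same libraries, and the genes were chosen with earlier results known. The count of 10 is therefore a description and is not to be set against chance. In GK, GK 9 stood apart for Myh1 (8208 CPM), Acta1 (4265 CPM), Ckm (1789 CPM) and Tnnt3 (553 CPM), and GK 8 for Nppa (3.02 CPM). Among the controls, control 7 stood apart for Myh6 (318 CPM), Actc1 (63.4 CPM), Tnnt2 (39.2 CPM) and Myl7 (53.1 CPM), and control 8 for Myh1 (11.4 CPM). In GK, Myh6, Actc1, Tnnt2 and Myl7 did not set a library apart, since both GK 7 and GK 8 were high.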

How the results depend on the processing

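No member was called in any of the 13 alternatives run (edgeR or DESeq2), where the members tested numbered 6 to 9. The 4 skeletal members share the pattern of a single high GK library. A call on them by these tests was therefore unlikely from the start wherever GK 9 was kept. DESeq2 gave no adjusted p for 5 of its 9, among them all 4 skeletal genes, so it gave no verdict on these. For the 4 skeletal genes and Myh6 and Actc1 the lowest adjusted p in any alternative was 0.0764, for Ckm. The sign turned for 3 genes: without GK 9, to -0.28 for Myh1, -1.78 for Acta1 and -0.46 for Tnnt3, and without both libraries numbered 9 to -0.68, -1.55 and -0.48. With single libraries left out the log2 fold change ran from -0.28 to 13.78 for Myh1, from -1.78 to 5.98 for Acta1 from -0.46 to 5.30 for Tnnt3, from 1.15 to 10.44 for Myh6 and from 1.75 to 4.84 for Actc1. The count of all changed genes was 995, and 135 (without control 10) to 3047 (without GK 9) with 1 library left out. It was 654 without a filter, 2419 with DESeq2 and 2532 without both libraries numbered 9. The summed skeletal level in GK 9 was 322 times the next library in CPM, 348 times on raw totals and 170 times in FPKM. For the cardiac sum the lowest of the 3 high libraries was 43.2 times the highest other in CPM, 52.9 on raw totals and 25.2 in FPKM. In the labels, libraries with the same number share only that number, and whether they were handled together is not stated. Their deviations from the group means correlated at 0.416, 0.0679, 0.545 and 0.0248 for numbers 7 to 10. The best GK library of another number gave 0.329, 0.409, -0.289 and 0.0982. Controls 7 and 9 thus correlated best with their own number, and controls 8 and 10 did not. A shared batch per number was not tested. The replicate block gave 2372 changed genes and called none of the 6 members tested, with Myh1 at 5.16, Acta1 at 0.18 and Myh6 at 4.32. For Myh6, Tnnt2, Nppa and Myl7, libraries with 0 counts allow up to 0.192 to 0.278 CPM.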
